A study of Saccharomyces cerevisiae with 4 samples.

Results

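Most of the genes described here make amino acids in Saccharomyces cerevisiae and are known targets of the activator Gcn4. The genes were chosen by name: 50 were listed, and 49 of them had a probe set tied to their gene among the 5449 genes tested. The list also holds GCN4 itself, PCL5 (a cyclin), ORT1 (a carrier), and SNZ1 and SNO1 (vitamin B6 synthesis). All are counted below among the amino acid genes. ARG5,6 was not analysed here. Transcript levels were compared between 2 cultures of the dis3E729K mutant and 2 cultures of wild type, on 4 1-colour Affymetrix arrays. Dis3 is a subunit with nuclease activity in the exosome, which trims and degrades RNA from the 3' end, and E729K is a missense change in Dis3. DIS3 itself read 11.49 and 11.12 in dis3E729K, against 11.65 and 11.82 in wild type (limma adjusted p = 0.154), and since the probes do not tell a point mutation apart this level checks no label. Both genotypes were in the BY4741 background, carried URA3 as a marker beside DIS3, and were grown to mid-log phase at 30 °C, which the labels call permissive, in synthetic drop-out medium that selects for the allele. Which amino acids the medium held is not given in the sources used here. The comparison asks which transcripts differ when Dis3 is altered.

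When amino acids run short, uncharged tRNA activates the kinase Gcn2, which phosphorylates the initiation factor eIF2. Translation in general then slows, while ribosomes pass the upstream open reading frames of the GCN4 mRNA and make more Gcn4 protein. Gcn4 in turn activates genes of nearly every amino acid pathway, the response called general amino acid control. Because the control is largely translational, the level of the GCN4 transcript does not give the amount of Gcn4, and these arrays measured transcripts only.

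The arrays did not all look like BY4741, a strain of the a mating type whose own MET17, LEU2, HIS3 and URA3 genes are deleted. All 7 a-cell genes measured were higher on both replicate 1 arrays than on both replicate 2 arrays, and all 6 alpha-cell genes measured were higher on both replicate 2 arrays. STE2, the receptor of a cells, read 12.58 in dis3E729K replicate 1 and 6.81 in dis3E729K replicate 2, against 12.26 in wild type replicate 1 and 7.01 in wild type replicate 2 (log2 intensity). MET17, a sulfhydrylase of methionine synthesis, read 3.37 and 3.47 in dis3E729K, against 3.22 and 9.55 in wild type, so it was above the background level of 4.06 in wild type replicate 2 alone. HIS3 read 10.49 to 11.57 on the 4 arrays, and where its probes lie relative to the deleted stretch is not given in the sources used here. LYS2, which some related laboratory strains lack, was bright on all 4 arrays. For the mating type genes the replicate number therefore stands for a difference between cultures. MET17 instead set wild type replicate 2 apart from the other arrays, dis3E729K replicate 2 among them. The difference within replicate 2 thus compares cultures that differed in MET17 as well as in genotype, and a replicate block does not remove this. For the genes the results turn on, the value on each array or the difference within each replicate is given below. Beside the genes that passed, the adjusted p is also given with the replicate number as a block. With 4 arrays in all, array number sets how precise any value is.

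The 49 genes all differed by less than 1 log2 unit between the genotypes, and more of them lay below wild type than above it. ARG4, the last enzyme of arginine synthesis, rose 1.60-fold in dis3E729K. ARG2, the enzyme that opens the ornithine pathway, fell, with a level 1.63-fold higher in wild type, as did LYS21, a homocitrate synthase of lysine synthesis (1.58-fold higher in wild type), and SNZ1, a vitamin B6 synthesis gene (1.74-fold higher in wild type). Of the 49 genes, 1 rose and 3 fell in limma's test at a Benjamini-Hochberg adjusted p under 0.05, and 45 did not pass. Over all genes tested, 7.71% rose and 8.15% fell, so the shares among the amino acid genes, 2.04% and 6.12%, were not above the background. At an unadjusted p under 0.05, 1 of the 49 was higher and 9 were lower, where 18.1% and 22.6% of all genes were. Of the 49, 0 differed by at least 1 log2 unit, which 14.7% of all genes did. The 49 differences ran from -0.80 for SNZ1 to 0.68 for ARG4. Of them 35, or 71.4%, were negative, beside 55.3% of all genes. Their median was -0.15, with -0.06 within replicate 1 and -0.29 within replicate 2, beside -0.07, -0.04 and -0.11 over all genes.

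These genes are bright on the array: 30 of the 49 lay in the upper quartile of the mean over the 4 arrays. Of the 1362 genes in that quartile 7.34% passed and 7.71% differed by at least 1 log2 unit, and of its 30 amino acid genes 0 passed in limma's test, with LYS2, LYS12 and GDH1 lower at an unadjusted p under 0.05. The 4 genes that passed were among the 19 outside it, where 18.7% of all genes passed. The median absolute difference of the 30 was 0.30 log2 units, beside 0.27 for all genes of that quartile. For the 19 it was 0.18, beside 0.44 for all genes outside the quartile. The part of brightness in these differences was not tested. None of the 4 calls held when any 1 of the 4 arrays was left out. Within replicate 1 the differences of ARG4, ARG2, LYS21 and SNZ1 were 0.74, -0.62, -0.71 and -0.96, and within replicate 2 they were 0.61, -0.79, -0.61 and -0.64, so each sign held in both. With the replicate number as a block the adjusted p values of ARG4, ARG2, LYS21 and SNZ1 were 0.0964, 0.0914, 0.0996 and 0.0800, and none of the 4 passed. In that limma fit the smallest adjusted p among the 49 genes was the 0.0800 of SNZ1. On all 4 arrays without a block, 4 of the 49 genes passed in limma's test in either direction, beside 15.9% of all genes. With 1 array left out, the median difference of the 49 genes ran from -0.28 to -0.069, beside -0.093 to -0.058 over all genes.

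**Figure D1:**
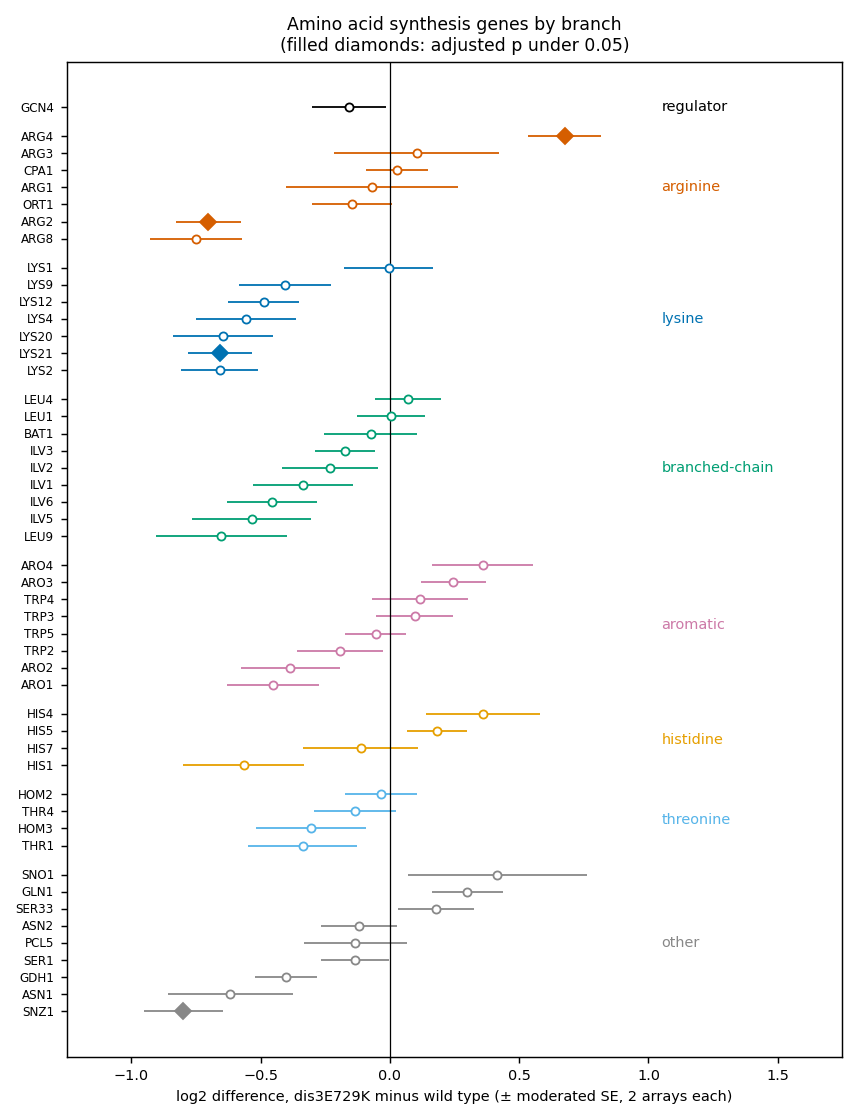
Log2 difference of each of the 49 measured genes, dis3E729K minus wild type, with the moderated SE as bars, grouped by branch from GCN4 at the top. Filled diamonds mark ARG4, ARG2, LYS21 and SNZ1, and all 7 lysine genes lie at or below zero.

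GCN4 (YEL009C), the activator itself, read 13.59 and 13.39 in dis3E729K, against 13.58 and 13.72 in wild type. The groups overlapped, since the replicate 1 arrays were level and only replicate 2 of the mutant lay below the other 3. The log2 difference was -0.16 ± 0.14 (SE; limma adjusted p = 0.439). PCL5, the cyclin that directs the kinase Pho85 to Gcn4 and is itself a Gcn4 target, read 10.03 and 10.50 in dis3E729K, against 10.40 and 10.39 in wild type, and did not pass either (adjusted p = 0.639). Its mutant arrays lay on either side of the wild-type arrays.

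Lysine synthesis had the lowest median difference of the 6 branches over the 4 arrays and within replicate 1, while within replicate 2 the branched-chain and threonine medians, given below, were lower. In fungi lysine is made through alpha-aminoadipate, and Lys14 activates the genes when the intermediate aminoadipate semialdehyde builds up. All 7 lysine genes had a negative difference, as did 55.3% of all genes. For 6 of the 7 both mutant arrays lay below both wild-type arrays, beside 41.8% of all genes that were lower without overlap. The branch median was -0.56, with -0.54 within replicate 1 and -0.44 within replicate 2. Of the 7 genes 1 fell in limma's test, where 8.15% of all genes fell, and 5 were lower at an unadjusted p under 0.05, where 22.6% of all genes were.

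LYS20 and LYS21 encode the homocitrate synthases that open the lysine pathway. LYS21 (YDL131W) read 10.81 and 10.78 in dis3E729K, against 11.52 and 11.38 in wild type, a difference of -0.66 ± 0.12 (SE; limma adjusted p = 0.0443; 10.79 ± 0.02 against 11.45 ± 0.09, SD, n = 2 each). LYS20 read 10.83 and 10.94 in dis3E729K, against 11.75 and 11.31 in wild type, a difference of nearly the same size, -0.65 ± 0.19, that did not pass (adjusted p = 0.0863). Wild type replicate 1 was the high array for LYS20, and the groups of neither gene overlapped.

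Further down the pathway, LYS4, homoaconitase, read 11.02 and 10.60 in dis3E729K, against 11.46 and 11.28 in wild type. LYS12, homoisocitrate dehydrogenase, read 12.18 and 12.09 in dis3E729K, against 12.72 and 12.52 in wild type. LYS2, the aminoadipate reductase, read 11.54 and 11.26 in dis3E729K, against 12.07 and 12.05 in wild type. For these 3 genes both mutant arrays lay below both wild-type arrays, with adjusted p values of 0.111, 0.0761 and 0.0556 in limma's test, so that none of them passed. LYS9, saccharopine reductase, differed by -0.41 ± 0.18, with -0.61 within replicate 1 and -0.20 within replicate 2 (adjusted p = 0.165). LYS1, the saccharopine dehydrogenase that releases lysine, was the exception among the 7 genes. It read 9.41 and 9.71 in dis3E729K, against 9.67 and 9.46 in wild type, a difference of -0.01 ± 0.17 (adjusted p = 0.982). That difference turned positive under median centring and quantile normalization. LYS5, a lysine gene outside the 7, lay the other way. It read 8.89 and 9.15 in dis3E729K, against 8.55 and 8.77 in wild type (0.36 ± 0.16, limma adjusted p = 0.177).

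**Figure D2:**
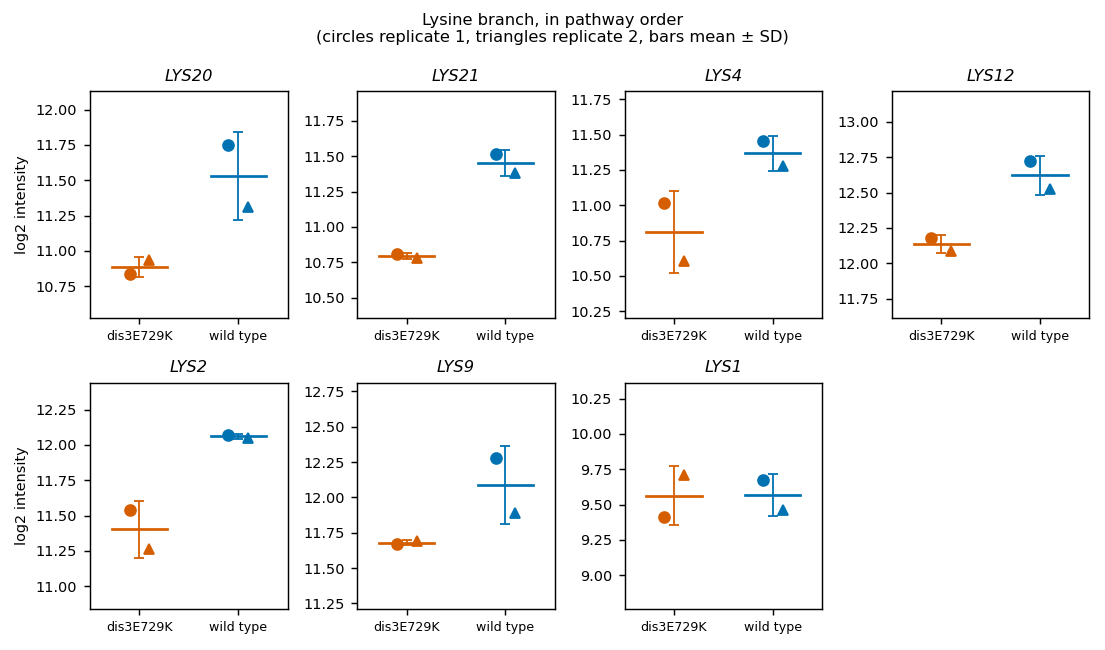
Log2 intensity of the 7 lysine genes in pathway order from LYS20 to LYS1, with dis3E729K on the left and wild type on the right of each panel, circles for replicate 1, triangles for replicate 2, and bars for the mean ± SD of 2 arrays. The groups are apart for 6 genes and overlap for LYS1, and each panel has its own axis range.

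Arginine genes did not move together. Of the 7 measured, ARG4 rose, ARG2 fell and 5 did not pass, with a median of -0.07 (-0.06 within replicate 1, -0.22 within replicate 2). ARG4 (YHR018C), argininosuccinate lyase, read 11.54 and 11.63 in dis3E729K, against 10.80 and 11.02 in wild type, and rose by 0.68 ± 0.14 (SE; limma adjusted p = 0.0498). Its adjusted p lay just under the threshold, and was 0.0841 to 0.179 when 1 array was left out. ARG2 (YJL071W), acetylglutamate synthase, read 8.68 and 8.53 in dis3E729K, against 9.30 and 9.32 in wild type, and fell by 0.70 ± 0.13 (adjusted p = 0.0419, and 0.0541 to 0.172 with 1 array left out). The spread between arrays of a group was small beside the difference for ARG2 and ARG4.

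ARG8, acetylornithine aminotransferase, acts in the same mitochondrial ornithine pathway as ARG2 and read 10.46 and 10.21 in dis3E729K, against 10.93 and 11.23 in wild type. Its difference of -0.75 ± 0.18 was larger than that of ARG2 and did not pass (limma adjusted p = 0.0586). ORT1, the carrier that exports ornithine from mitochondria, differed by -0.15 ± 0.15 and CPA1, the small subunit of carbamoyl phosphate synthase, by 0.03 ± 0.12. ARG3, ornithine carbamoyltransferase, read 7.47 and 8.32 in dis3E729K, against 7.73 and 7.85 in wild type, so its groups overlapped. ARG1, argininosuccinate synthase, which makes the substrate of Arg4, read 10.52 and 9.75 in dis3E729K, against 10.44 and 9.97 in wild type. It was higher on both replicate 1 arrays than on both replicate 2 arrays, and the genotypes overlapped (-0.07 ± 0.33, adjusted p = 0.886). ARG3, CPA1 and ORT1 split by replicate number in the opposite way, with both replicate 2 arrays higher. Of the 49 genes 10 split by replicate number, 4 higher in replicate 1 and 6 higher in replicate 2, beside 4.97% and 6.50% of all genes.

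Branched-chain genes, for leucine, isoleucine and valine, had a median of -0.23 over 9 genes, with -0.09 within replicate 1 and -0.53 within replicate 2, and 0 of the 9 passed limma's test (0 also at an unadjusted p under 0.05). Dis3E729K replicate 2 was the lowest of the 4 arrays for 8 of the 9. ILV5, the acetohydroxyacid reductoisomerase, read 13.32 and 12.75 in dis3E729K, against 13.57 and 13.57 in wild type. ILV6, the regulatory subunit of acetolactate synthase, read 12.41 and 12.10 in dis3E729K, against 12.60 and 12.82 in wild type. The groups did not overlap for either gene, and the adjusted p values were 0.160 and 0.132. ILV2, the catalytic subunit, differed by -0.23 ± 0.18, ILV1, threonine deaminase, by -0.34 ± 0.19, and ILV3, dihydroxyacid dehydratase, by -0.17 ± 0.12. LEU1, isopropylmalate isomerase, lay at 0.00 ± 0.13, with opposite signs in the replicates, and BAT1, the mitochondrial branched-chain aminotransferase, at -0.07 ± 0.18.

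LEU4 and LEU9 are paralogues for isopropylmalate synthase, which opens the leucine branch, and their values parted. LEU9 read 11.49 and 10.90 in dis3E729K, against 11.72 and 11.98 in wild type, a difference of -0.65 ± 0.25 (limma adjusted p = 0.135). LEU4 read 12.84 and 12.99 in dis3E729K, against 12.82 and 12.87 in wild type, a difference of 0.07 ± 0.13 (adjusted p = 0.703). The difference of LEU4 less that of LEU9 was 0.72 log2 units, with 0.24 within replicate 1 and 1.20 within replicate 2. ASN1 and ASN2, paralogues for asparagine synthetase, parted in a like way. ASN1 read 12.47 and 11.85 in dis3E729K, against 12.74 and 12.81 in wild type, and ASN2 read 12.83 and 12.67 in dis3E729K, against 12.76 and 12.97 in wild type, so that the ASN1 groups were apart and the ASN2 groups overlapped. The difference of ASN1 less that of ASN2 was -0.50, with -0.34 and -0.65 within the replicates.

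For LYS20 less LYS21 the same measure was 0.01, and for ARO3 less ARO4 -0.11, with opposite signs in the replicates. BAT1 less BAT2, the cytosolic aminotransferase, came to -0.38, SER3 less SER33, the phosphoglycerate dehydrogenases, to -0.29, and GDH1 less GDH3, the NADP-linked glutamate dehydrogenases, to -0.20. An exact two-sided permutation test of 2 arrays against 2 cannot give a p below 0.333, so none of these 7 paralogue comparisons could pass, and p was 0.333 for LEU4 less LEU9, ASN1 less ASN2, SER3 less SER33 and BAT1 less BAT2.

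**Figure D3:**
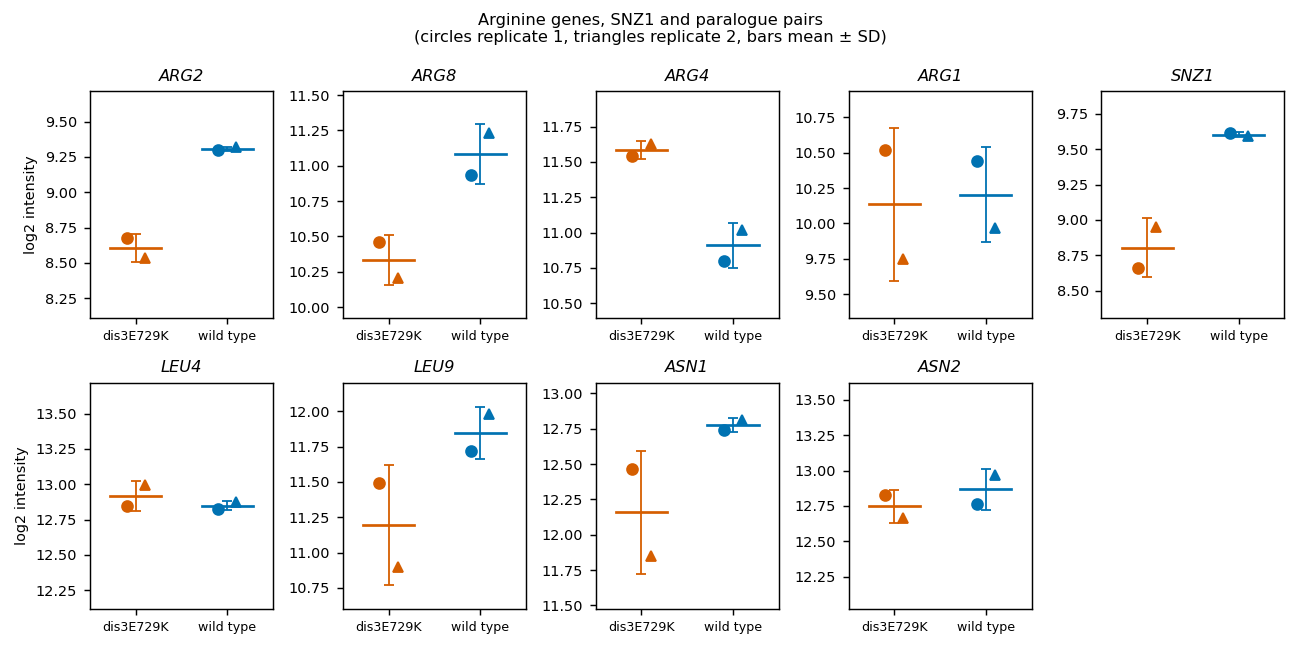
Log2 intensity of 4 arginine genes, SNZ1 and the paralogue pairs LEU4 and LEU9, and ASN1 and ASN2, with dis3E729K on the left and wild type on the right, circles for replicate 1, triangles for replicate 2, and bars for the mean ± SD of 2 arrays. ARG4 is higher in dis3E729K, ARG2, ARG8, SNZ1, LEU9 and ASN1 are lower, ARG1 splits by replicate number, and each panel has its own axis range.

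Aromatic genes lay on both sides of zero along the pathway, and 0 of 8 passed limma's test, also at an unadjusted p under 0.05. ARO3 and ARO4 encode the DAHP synthases that commit carbon to the shikimate pathway, with feedback from phenylalanine and tyrosine. ARO3 read 12.29 and 12.15 in dis3E729K, against 11.95 and 12.00 in wild type, and ARO4 read 12.89 and 12.80 in dis3E729K, against 12.71 and 12.26 in wild type. Both mutant arrays were above both wild-type arrays for these 2 genes, as for 32.3% of all genes. ARO1, the protein that catalyses the middle steps, read 12.27 and 12.07 in dis3E729K, against 12.45 and 12.79 in wild type, and ARO2, chorismate synthase, read 12.46 and 12.02 in dis3E729K, against 12.64 and 12.62 in wild type. For ARO1 and ARO2 both mutant arrays lay below both wild-type arrays. The adjusted p values were 0.215 for ARO3, 0.236 for ARO4, 0.137 for ARO1 and 0.202 for ARO2. The tryptophan genes TRP2, TRP3, TRP4 and TRP5, which act beyond chorismate, differed by -0.19 to 0.12. The median of the branch was 0.02, with 0.11 within replicate 1 and -0.09 within replicate 2.

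Histidine genes had a median of 0.03 over 4 genes (0.01 within replicate 1 and -0.04 within replicate 2), and 0 passed limma's test, also at an unadjusted p under 0.05. HIS1, the enzyme of the opening step and the site of feedback by histidine, read 12.46 and 11.90 in dis3E729K, against 12.66 and 12.83 in wild type (-0.57 ± 0.24, adjusted p = 0.152). HIS4, which catalyses several steps of the pathway and is a classical reporter of Gcn4, read 11.55 and 11.20 in dis3E729K, against 10.80 and 11.22 in wild type. The higher reading of HIS4 thus came from replicate 1, at 0.74, and was -0.03 within replicate 2. HIS5, histidinol phosphate aminotransferase, differed by 0.18 ± 0.12 and HIS7, which acts in the middle of the pathway, by -0.11 ± 0.22. HIS7 and ARO4 are neighbours on their chromosome, and the signs of their differences were opposite.

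The 4 threonine genes listed all had a negative difference, as did 55.3% of all genes. The median over the 4 genes was -0.22, and 0 passed limma's test, also at an unadjusted p under 0.05. The median was 0.02 within replicate 1 and -0.46 within replicate 2, and dis3E729K replicate 2 was the lowest array for all 4. HOM3, aspartate kinase, which opens the pathway and is inhibited by threonine, read 11.54 and 11.06 in dis3E729K, against 11.52 and 11.69 in wild type. THR1, homoserine kinase, read 12.53 and 12.02 in dis3E729K, against 12.58 and 12.64 in wild type. The groups overlapped for HOM3 and were apart for THR1, with differences of -0.06 within replicate 1 and -0.62 within replicate 2. HOM2, aspartate semialdehyde dehydrogenase, differed by -0.03 ± 0.14 and THR4, threonine synthase, by -0.13 ± 0.16. HOM6, a gene of this pathway outside the 4, differed by 0.07 ± 0.12 (limma adjusted p = 0.653), with 0.09 and 0.06 within the replicates.

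Among the remaining genes SNZ1 (YMR096W) had the lowest difference of the 49. It read 8.66 and 8.95 in dis3E729K, against 9.62 and 9.59 in wild type, and fell by 0.80 ± 0.15 (SE; limma adjusted p = 0.0445, and 0.0614 to 0.151 with 1 array left out). SNO1, its neighbour on the chromosome and its partner in vitamin B6 synthesis, read 4.90 and 5.83 in dis3E729K, against 4.86 and 5.03 in wild type. Only replicate 2 of the mutant stood above the others, and the remaining values lay near the 4.26 to 4.58 read for LEU2, which BY4741 lacks, so SNO1 had little signal to compare.

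Of the genes that assimilate nitrogen, GDH1, the NADP-linked glutamate dehydrogenase, read 12.86 and 12.95 in dis3E729K, against 13.32 and 13.29 in wild type. GLN1, glutamine synthetase, read 13.11 and 12.96 in dis3E729K, against 12.66 and 12.81 in wild type. The groups were apart in opposite directions, with differences of -0.40 ± 0.12 for GDH1 and 0.30 ± 0.14 for GLN1, and neither passed (limma adjusted p = 0.0843 and 0.179). SER1, phosphoserine aminotransferase, differed by -0.14 ± 0.13 and SER33 by 0.18 ± 0.15.

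The 2 replicates did not weigh equally in these values. Within replicate 2 the mutant stood lower, relative to wild type, than within replicate 1 for 34 of the 49 genes, 69.4%, beside 57.1% of all genes, and dis3E729K replicate 2 was the lowest of the 4 arrays for 30 of them, 61.2%, beside 42.4% of all genes. The signs in the replicates were opposite for 17 genes, 34.7%, beside 20.2% of all genes. In the lysine branch 2 of 7 genes lay lower within replicate 2 than within replicate 1, against 8 of 9 in the branched-chain, 7 of 8 in the aromatic and 4 of 4 in the threonine branch. Over the 49 genes both mutant arrays were below both wild-type arrays for 22, 44.9%, and above them for 6, 12.2%, where all genes gave 41.8% and 32.3%.

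**Figure D4:**
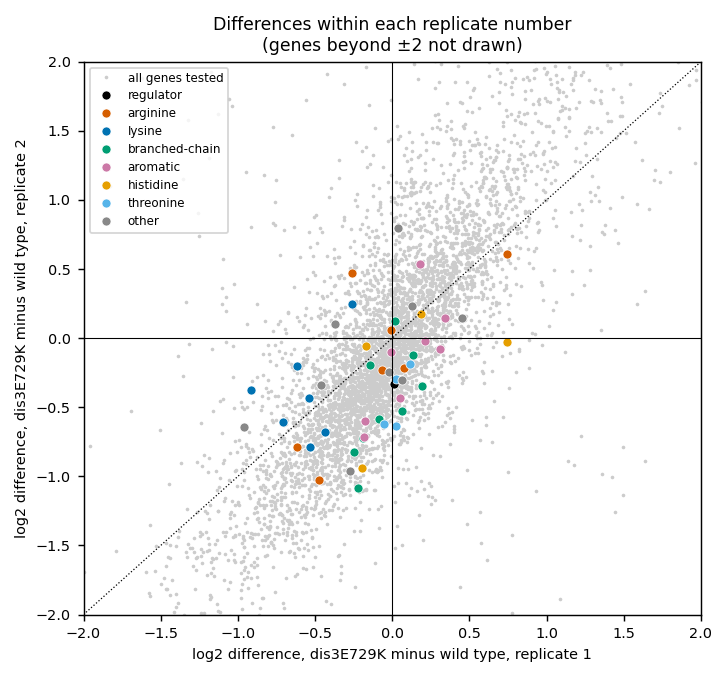
Each gene's log2 difference, dis3E729K minus wild type, within replicate 1 (horizontal) and within replicate 2 (vertical), for the 49 genes in colour by branch and all genes tested in grey, with a dotted line of equal differences. The branched-chain and threonine genes lie mostly below the dotted line and the lysine genes on either side of it.

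Few of the further amino acid synthesis genes passed: of 24 measured of 26 listed, GLY1, threonine aldolase, a source of glycine, fell and 0 rose in limma's test, and an unadjusted p below 0.05 was reached by 1 higher and 4 lower genes. Over all genes 7.71% rose and 8.15% fell, and 18.1% were higher and 22.6% lower at that unadjusted p. GLY1 read 12.13 and 11.86 in dis3E729K, against 12.68 and 12.78 in wild type, and fell by 0.73 ± 0.15 (SE; limma adjusted p = 0.0478, and 0.0531 to 0.192 with 1 array left out). Its call was also lost with the replicate block (0.0960) and with all probe sets. The median of the 24 genes was -0.05. The 24 include LEU2 and HIS3, whose own copies are deleted in BY4741, and LEU2 read only 4.26 to 4.58 on the arrays. Those with the next largest statistics were ARG7, the ornithine acetyltransferase that follows Arg8 (-0.48 ± 0.14), HIS3, imidazoleglycerol phosphate dehydratase (-0.72 ± 0.21), ALT1, alanine aminotransferase (0.54 ± 0.18), and ARO7, chorismate mutase (-0.61 ± 0.21). None of these 4 passed, with adjusted p values from 0.0779 to 0.105.

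Of the 14 genes that set the translation of GCN4, 13 had a negative difference, beside 55.3% of all genes, and the median was -0.36, beside -0.07. Of the 14, 2 fell, where 8.15% of all genes did. GCD10 read 10.14 and 9.96 in dis3E729K, against 10.85 and 11.11 in wild type, and fell by 0.93 ± 0.16 (limma adjusted p = 0.0412). GCD14 read 9.72 and 9.37 in dis3E729K, against 10.33 and 10.40 in wild type, and fell by 0.82 ± 0.17 (adjusted p = 0.0479). Gcd10 and Gcd14 form the tRNA methyltransferase that stabilises the initiator tRNA, and their loss is known to derepress GCN4. The call of GCD10 was lost without any 1 of the 4 arrays (adjusted p = 0.0635 to 0.140), and that of GCD14 held without dis3E729K replicate 1 (0.0487) and was lost without any of the other 3 (0.115 to 0.170). Neither passed with the replicate block (0.0706 for GCD10 and 0.0829 for GCD14), and GCD14 did not pass with all probe sets or quantile normalization. GCN2, the eIF2 kinase, read 9.90 and 9.78 in dis3E729K, against 10.39 and 10.43 in wild type. Its groups were well apart and its adjusted p was 0.0509, just outside the threshold. YIH1, an inhibitor of Gcn2 activation, GCD6 and GCD2, subunits of the exchange factor eIF2B, differed by -0.72 ± 0.24, -0.56 ± 0.17 and -0.36 ± 0.15 and did not pass. All 14 genes were lower, relative to wild type, within replicate 2 than within replicate 1, as were 57.1% of all genes.

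Of 5 genes for the turnover of Gcn4 protein, 1 rose, where 7.71% of all genes did. The differences of 4 of the 5 were above zero, beside 44.7% of all genes, with a median of 0.37. PCL5, which also acts on Gcn4 and is not among the 5, differed by -0.13 ± 0.20. A difference from the translation genes was not tested. SSN8, the cyclin of the Mediator kinase that phosphorylates Gcn4, read 9.47 and 9.62 in dis3E729K, against 8.44 and 8.24 in wild type, and rose by 1.20 ± 0.14 (limma adjusted p = 0.0337), which was 2.30-fold. The call held with the replicate block (0.0493) and without dis3E729K replicate 1 (0.0487), and was lost without dis3E729K replicate 2 (0.114), wild type replicate 1 (0.0523) or wild type replicate 2 (0.0929). PHO85, the kinase that works with Pcl5 on Gcn4, read 11.03 and 11.15 in dis3E729K, against 10.53 and 10.53 in wild type (0.56 ± 0.12, adjusted p = 0.0521). CDC34 and CDC4, of the ubiquitin ligase that then marks Gcn4, differed by 0.37 ± 0.15 and -0.26 ± 0.12, and PHO80, the Pho85 cyclin of phosphate signalling, by 0.18 ± 0.16.

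Among regulators of single branches, BAS1, the Myb-type activator that works with Pho2 on HIS4 and on purine synthesis genes, read 9.11 and 8.99 in dis3E729K, against 10.51 and 10.84 in wild type. It fell by 1.62 ± 0.17 (limma adjusted p = 0.0335), a level 3.08-fold higher in wild type, with -1.40 within replicate 1 and -1.85 within replicate 2. Its call held with the replicate block (0.0396) and without wild type replicate 1 (0.0377) and was lost without dis3E729K replicate 1, at an adjusted p that rounds to the threshold, and without dis3E729K replicate 2 (0.114) or wild type replicate 2 (0.0723). PHO2, its partner, read 9.87 and 10.34 in dis3E729K, against 9.22 and 9.24 in wild type, higher without overlap, and did not pass (adjusted p = 0.0556). ARG82, an inositol polyphosphate kinase needed for the arginine regulator complex, averaged 9.18 ± 0.25 in dis3E729K and 8.17 ± 0.22 in wild type (SD, n = 2 each), without overlap, and rose by 1.02 ± 0.20 (adjusted p = 0.0453, 0.0761 with the replicate block, and 0.0600 to 0.147 with 1 array left out).

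ARG80, a subunit of that arginine complex, LEU3, the activator of leucine genes, and LYS14, the activator of lysine genes, had both mutant arrays below both wild-type arrays. LYS14 read 9.75 and 9.82 in dis3E729K, against 10.17 and 10.24 in wild type, a difference of -0.42 ± 0.12 (SE). The difference was also -0.42 within each replicate. LEU3 differed by -0.71 ± 0.17 and ARG80 by -0.81 ± 0.20. None of the 3 passed, with adjusted p values of 0.0771 for LYS14, 0.0595 for LEU3 and 0.0638 for ARG80. Of the 13 regulators listed, 1 rose and 1 fell, near the 7.71% and 8.15% over all genes. Without overlap 7 of the 13 were lower, 53.8%, and 4 were higher, 30.8%, beside 41.8% and 32.3% of all genes.

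**Figure D5:**
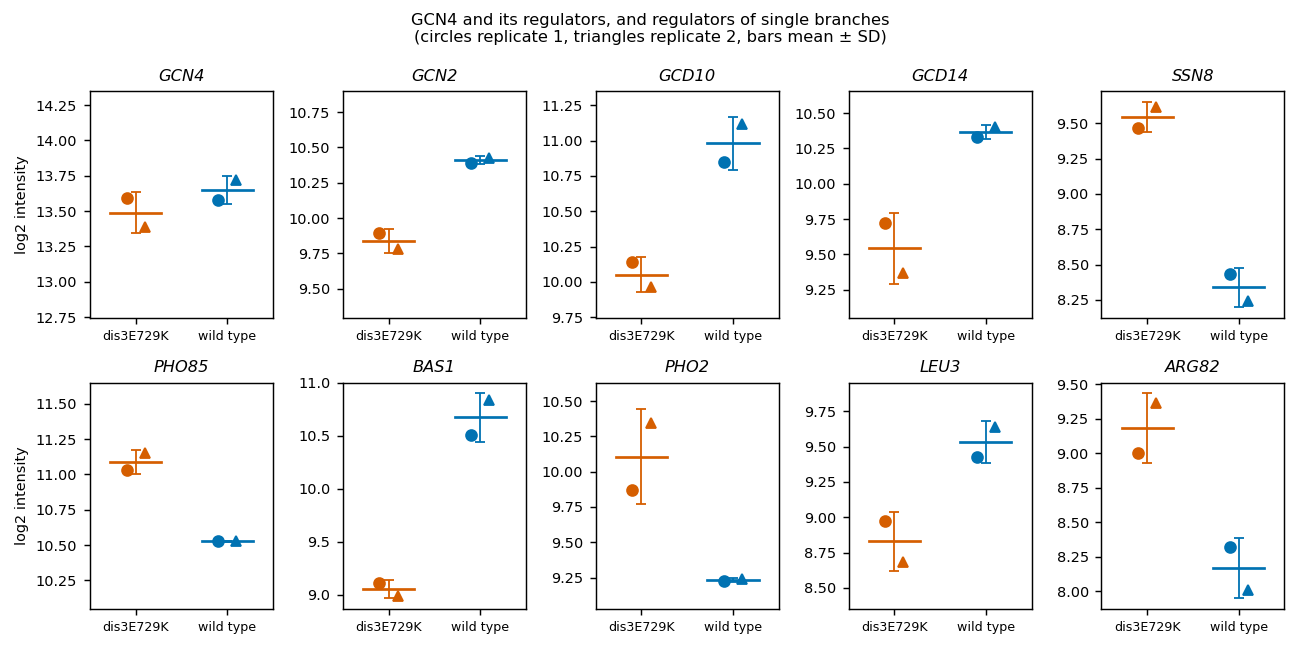
Log2 intensity of GCN4, of regulators of its translation (GCN2, GCD10, GCD14) and turnover (SSN8, PHO85), and of regulators of single branches (BAS1, PHO2, LEU3, ARG82), with dis3E729K on the left and wild type on the right, circles for replicate 1, triangles for replicate 2, and bars for the mean ± SD of 2 arrays. GCN4 overlaps between genotypes, and the groups of the other 9 are apart. Over all genes 32.3% were higher and 41.8% lower without overlap, and those 9 were named for passing or for large statistics. Each panel has its own axis range.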

How the data were processed

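The authors deposited a table of log2 intensities, with 1 value for every probe set on every array. The submitters' processing notes name RMA, Expression Console and Transcriptome Analysis Console (Affymetrix) without versions. In RMA, background is removed, arrays are brought to a common distribution and probes are summarised per set, so a change shared by all transcripts cannot be seen. The table held 10928 probe sets, of which 5498 were tied to 1 gene by GEO's platform table, with symbols updated through RefSeq's gene table (assembly R64). For 47 genes with several probe sets, the one with the highest mean over the 4 arrays was kept, leaving 5449 genes. Each of the 49 genes described had 1 probe set, none marked as cross-hybridising. The background level, 4.06, was the 95th percentile of the 1746 probe sets of the array's other species. No build is named for the files, so no coordinates are given.

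Titles gave the group and replicate number of each sample. The test of genotype was limma's moderated, two-sided test (version 3.58.1, R 4.3.3), fitted to all 4 arrays with no filter on dim genes, with 2 residual and 2.18 prior degrees of freedom. Adjustment was by Benjamini-Hochberg over all 5449 genes, and an adjusted p under 0.05 passed. The procedure was tested on simulated data. All differences are on the log2 scale and subtract wild type from dis3E729K, and their SE is moderated. The titles call the samples biological replicates; p-values rest on the spread of 2 cultures per group. Python 3.11.15, pandas 2.3.3, scipy 1.17.1 and matplotlib 3.10.9 made the tables, permutation tests and plots.

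All 50 genes could be named. From the lists of other genes, those that passed and up to 4 more per list with the largest absolute statistic were named. The paralogue partners, strain markers and cell type markers were named too, and LYS5 and HOM6 beside their branches. Members and lists were chosen with earlier results of these data known. Alternatives were the replicate block, an intensity trend or robust fit, median centring, quantile normalization, dim genes left out, averaged probe sets, all probe sets, cross-hybridising sets left out, another threshold, and each array left out.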

Additional observations from a re-analysis of the deposited data

How the results depend on the processing

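Counts of calls depended on single arrays and on the model. With 1 array left out, 0 to 316 genes rose and 0 to 351 fell over the whole table, against 420 and 444, with the 0 for both reached without dis3E729K replicate 2, where limma gave 694 higher and 868 lower genes at an unadjusted p under 0.05. Among the 49 amino acid genes 0 rose and 0 fell in each of the 4 fits. Adding a block for the replicate number left 199 genes that rose and 144 that fell. Of the 49, 0 rose and 0 fell in that limma fit, while an unadjusted p under 0.05 was reached by 1 higher and 7 lower genes. Of all 5449 genes, 850 were higher and 950 lower at that unadjusted p. The mating type genes tie arrays of the same number, while the titles do not say what a number shares: across all genes the difference of replicate 1 less replicate 2 in dis3E729K correlated with that in wild type at 0.0839. At an adjusted p under 0.10, 883 genes rose and 1069 fell, and 8 of the 49 fell. With an intensity trend 5 of the 49 fell, GDH1 and LYS2 beside the 3 named, where 479 of all 5449 genes fell. ARG4 did not pass, leaving 0 that rose, with all probe sets, quantile normalization or a robust fit, and the 3 falls held there. The median of all genes was -0.032 over all probe sets.

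Medians ranged, with 1 array left out, from -0.28 to -0.069 over the 49 genes, -0.64 to -0.42 for lysine, -0.39 to -0.11 for branched-chain, -0.42 to -0.02 for threonine, -0.20 to 0.011 for arginine, -0.078 to 0.042 for aromatic and -0.070 to 0.13 for histidine genes. So the sign held for lysine, branched-chain and threonine and turned for the other 3 branches. LYS1 turned to 0.0087 with median centring and to 0.032 with quantile normalization, and LEU1 turned to -0.012 with quantile normalization. With 1 array left out, 16 genes that had not passed changed sign: ARG1 (-0.45 to 0.31), ARG3 (-0.32 to 0.53), BAT1 (-0.25 to 0.10), CPA1 (-0.021 to 0.076), GDH3 (-0.54 to 0.14), HIS7 (-0.33 to 0.11), HOM2 (-0.14 to 0.067), LEU1 (-0.062 to 0.072), LEU4 (-0.0057 to 0.15), LYS1 (-0.15 to 0.14), PCL5 (-0.37 to 0.10), SER3 (-0.26 to 0.033), SNO1 (-0.050 to 0.88), THR4 (-0.30 to 0.025), TRP3 (-0.039 to 0.23) and TRP4 (-0.10 to 0.33). The causes were not tested. With 2 arrays per group, a gene that did not pass is not shown to be equal between the genotypes.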
